A study of Rattus norvegicus with 39 samples.

Results

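The comparison set 10 rats that lived for 3 months without adrenal glands on a low dose of corticosterone against 10 intact rats, in the CA1 region of the hippocampus. Its members were the 10 arrays titled LowCort and the 10 arrays titled sham, 20 of the 39 arrays of the study, with 1 animal per array. All animals were male Fisher 344 rats, 14 to 15 months old when surgery was done and 18 months old when CA1 was dissected. Sham rats kept their adrenal glands and carried an inert pellet under the skin. LowCort rats had been adrenalectomized by the supplier and carried 1 slow-release pellet with 25 mg of corticosterone. Between surgery and the pellet they had been kept on isotonic saline with sucrose, soft feed and apple, and had received injections of 1.25 mg of corticosterone sulfate. With the pellet in place, only the salted and sweetened drinking fluid was continued. The loss of the adrenal glands, the steady low steroid supply and the drinking fluid therefore came together in LowCort and cannot be told apart here. Adrenalectomy also removes adrenal aldosterone and adrenaline, which the pellet does not replace. A second adrenalectomized group, IntermediateCort (9 arrays), carried a 200 mg pellet and is used below for values beside those of LowCort. Another, LowInj (10 arrays), carried the 25 mg pellet and was injected with 5 mg of corticosterone a day for 4 days. LowInj is compared with nothing here, but its arrays and those of IntermediateCort enter the alternative fit of all 39 arrays. Steroid levels in blood were not analysed here.

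Corticosterone is the main glucocorticoid of the rat. It binds the mineralocorticoid receptor, which has the higher affinity and is occupied even at low steroid levels, and the glucocorticoid receptor, which fills at the daily peak and under stress; hippocampal neurons carry both. Bound receptors move to the nucleus, switch on genes through response elements in DNA, and hold back the transcription of many inflammatory genes. Removing the adrenal glands takes away both the daily rise and the stress response of the hormone, which a slow-release pellet does not restore.

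Transcript abundance was read as log2 values of 8740 probe sets, and a call of change means a Benjamini-Hochberg adjusted p under 0.05 in limma over all 8740. Between arrays, the correlation across probe sets was 0.977 to 0.996 within Sham, 0.978 to 0.997 within LowCort and 0.978 to 0.997 between the groups, so the groups overlapped as whole profiles. The 3' minus 5' difference of control probe sets, which grows as RNA or cDNA gets shorter, was 0.70 ± 0.22 in Sham and 0.81 ± 0.24 in LowCort for Gapdh (SD, n = 10 each), and 0.68 ± 0.41 and 0.93 ± 0.40 for beta-actin; two-sided permutation tests gave p = 0.291 and p = 0.178 (adjusted p = 0.291 for both). Of 18 CA1 pyramidal markers, 9 had a probe set with that symbol alone, and their mean level ran from 8.71 to 9.16 in Sham and from 8.84 to 9.15 in LowCort; Wfs1, a defining CA1 marker, was not among the 9. Of these 9 markers 1 rose (Dcn, which is also a matrix gene) and 8 did not pass. An unadjusted p under 0.05 was found for 4 of the 9, against 11.0% of all 4736 genes. Differences lay above 0 for 5 of the 9 and below 0 for 4, with a median of 0.05. Among the 8, the mineralocorticoid receptor Nr3c2 had 0.44 (adjusted p = 0.0535). The neuronal calcium sensor Hpca had -0.30 (adjusted p = 0.264) and the kinase Itpka -0.41 (0.0961). In a piece of tissue, fewer cells of a type and less RNA per cell cannot be told apart.

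In CA1 of LowCort rats, 58 probe sets rose and 33 fell against Sham. The 91 called probe sets were 1.04% of those tested, with 0.664% called higher and 0.378% called lower, and 957 had an unadjusted p under 0.05. With 1 symbol each, 73 of them stood for 66 genes, 39 that rose and 27 that fell. Most changes were small: the median absolute difference of the called probe sets was 0.41, 62 were under 0.5, and only 2 reached 1. These 2 were Sult1a1 and Sgk1, both lower in LowCort, while the largest rise was 0.67. For 17 probe sets (0.195% of all) the 10 LowCort values lay entirely outside the 10 Sham values, and each of these was among the called. Without LowCort animal 28 the count of calls was 58, the lowest with any 1 animal left out. With the Gapdh and beta-actin differences as covariates, 108 probe sets were called, 56 higher and 52 lower in LowCort, so that 51.9% were higher against 63.7% without the covariates.

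**Figure D1:**
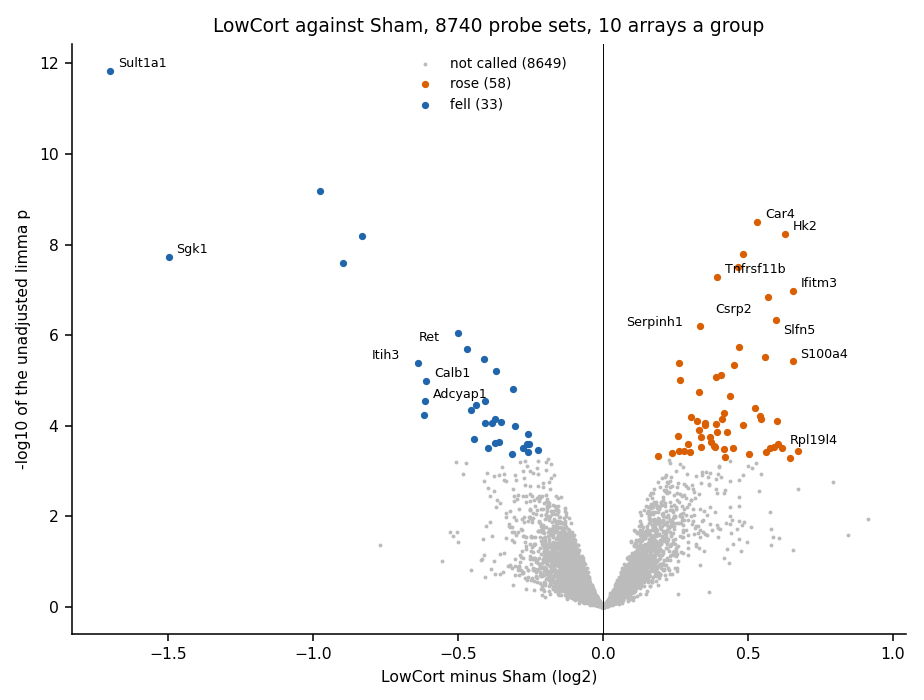
Difference between LowCort and Sham (log2, x axis) and -log10 of the unadjusted limma p (y axis) for each of 8740 probe sets, with 58 called higher and 33 called lower in colour. Sult1a1 at -1.70 and Sgk1 at -1.50 stand far to the left of all other named genes.

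The deepest falls were those of Sult1a1 and Sgk1, both known as glucocorticoid-induced genes. Sult1a1 encodes a sulfotransferase that conjugates phenols, catechols and steroids. Its value was lowest at 6.33, with a median of 6.67 and a highest of 7.36, over the 10 Sham rats, and 4.62, 5.07 and 5.33 over the 10 LowCort rats. Every LowCort rat lay below the lowest Sham rat. Sult1a1 fell 3.25-fold (log2 -1.70, SE 0.12, limma adjusted p = 1.27e-08), and its second probe set had -0.98 (adjusted p = 2.85e-06). Sgk1 encodes the serum- and glucocorticoid-regulated kinase, which acts on sodium channels, glutamate receptors and other membrane proteins. Its Sham values ran from 8.45 through a median of 9.47 to 10.25, and its LowCort values from 7.73 through 7.91 to 8.27. The groups did not overlap, and the spread was wide in Sham (SD 0.59) and narrow in LowCort (SD 0.17). Sgk1 fell 2.83-fold (log2 -1.50, SE 0.18, adjusted p = 2.31e-05).

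**Figure D2:**
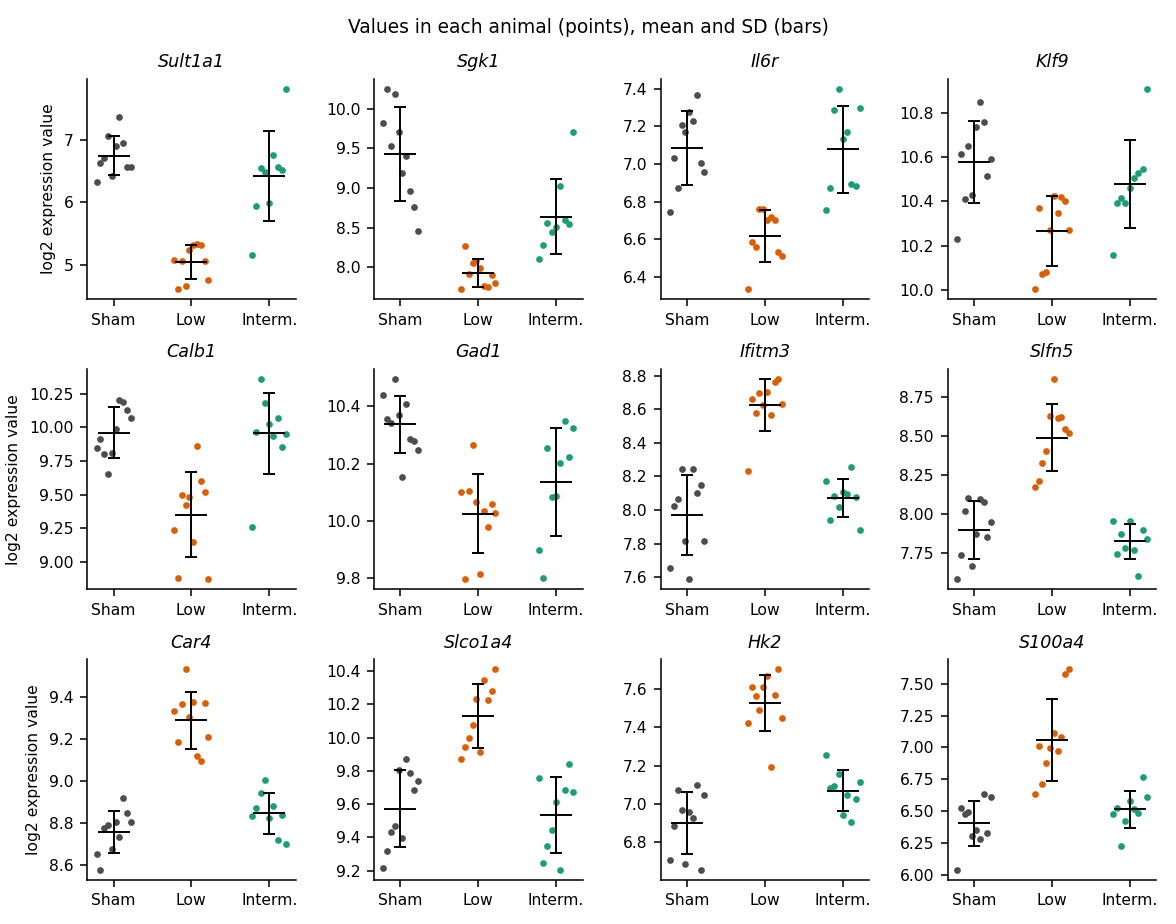
Log2 expression value (y axis) of 12 genes in each animal of Sham, LowCort (Low) and IntermediateCort (Interm.), as points with the group mean and SD as bars. LowCort points lie below all Sham points for Sult1a1 and Sgk1 and above all Sham points for Hk2, Car4 and Slfn5.

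The 150 bases before the RefSeq start of both genes (GRCr8, both on the minus strand) are shown because these were the largest changes; capitals mark AGAACA, one arm of the steroid receptor element, on either strand. The Sult1a1 window is chr1:190706113-190706262 and holds 1 such hexamer, and the Sgk1 window is chr1:24807232-24807381 and holds none.
Sult1a1: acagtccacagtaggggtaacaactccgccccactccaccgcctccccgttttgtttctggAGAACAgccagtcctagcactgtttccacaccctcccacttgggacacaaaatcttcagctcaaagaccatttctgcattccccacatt
Sgk1: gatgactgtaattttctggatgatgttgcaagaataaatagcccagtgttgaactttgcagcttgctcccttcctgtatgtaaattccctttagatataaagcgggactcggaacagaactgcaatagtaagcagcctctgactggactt
For each gene the RefSeq start farthest upstream was used. Over 250 bases before it, AGAACA was found in 2 of 20 promoters of genes that fell (Gal and Sult1a1) and 3 of 31 of genes that rose, against 17% of the promoters of all 27457 genes. The full spaced palindrome (GNACA, any 3 bases, TGTNC) was found in 0 of 20 and 0 of 31, against 0.364% of all. The table lists further starts for 3 called genes (Sgk1, Slfn5 and Ddc), and neither sequence was found before those. These counts describe letters in a short window, and elements farther away were not looked for.

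Of 33 glucocorticoid-induced targets on the list, 18 were measured: 0 rose, 4 fell and 14 did not pass, and 16 of the 18 differences were below 0, with a median of -0.21. For comparison, over all 4736 genes with 1 probe set each, 1.16% were called (0.697% higher, 0.465% lower), 54.7% lay below 0 and the median was -0.01. The lists were drawn up with earlier results of these arrays known, so their direction is no independent evidence. Beside Sult1a1, which stood on the list with its second probe set, and Sgk1, the members that fell were Il6r and Klf9. Il6r, the receptor chain for interleukin-6, had Sham values of 6.75, 7.10 and 7.37 (lowest, median, highest) and LowCort values of 6.34, 6.65 and 6.76. Only 2 LowCort rats reached into the Sham range, and Il6r fell by 0.47 (SE 0.07, adjusted p = 0.00106). Klf9, a transcription factor that glucocorticoids induce in neurons, fell by 0.31 (adjusted p = 0.0411), with 7 LowCort rats inside the Sham range. This call was lost when all 39 arrays were fitted together (adjusted p = 0.0699) and in 13 of the 20 fits that left out 1 animal. Errfi1, which restrains epidermal growth factor signalling, fell by 0.46 in 1 of its 3 probe sets (adjusted p = 0.011), while the probe set that stood for it on the list had -0.23 (adjusted p = 0.21). Nfkbia, the inhibitor that holds NF-kB in the cytoplasm, had -0.30 (adjusted p = 0.0954), glycerol-3-phosphate dehydrogenase Gpd1 had -0.20 (0.0744) and the pyruvate dehydrogenase kinase Pdk4 had -0.27 (0.149). These 3 genes passed in the fit of all 39 arrays (adjusted p = 0.0138, 0.0159 and 0.0261). They did not pass with array weights (0.0563, 0.0751 and 0.0659) or with the Gapdh and beta-actin covariates (0.195, 0.146 and 0.264). Fkbp5, Tsc22d3 and Per1, further classical targets, had no probe set with that symbol alone. The mean level of the 18 members ran from 8.42 to 8.70 in Sham and from 8.24 to 8.35 in LowCort.

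The receptors themselves did not pass. The glucocorticoid receptor Nr3c1 differed by 0.00 (SE 0.05, adjusted p = 0.992), and its 3 probe sets ranged from -0.02 to 0.29. The mineralocorticoid receptor Nr3c2 was higher in each of the 10 LowCort rats than the Sham mean, with a difference of 0.44 (SE 0.11), but 8 of them lay inside the Sham range. Its adjusted p of 0.0535 missed the threshold, and it was 0.0262 in the fit of all 39 arrays. The adjusted p was 0.0948 with array weights and 0.122 with the Gapdh and beta-actin covariates. Hsd11b1, the enzyme that regenerates active corticosterone inside cells, had -0.09 (adjusted p = 0.749). Of 14 measured receptors, chaperones and steroid-handling genes, only Sult1a1 was called, and the median was 0.02.

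Genes known from the interferon response were among those that rose. Ifitm3, a membrane protein that blocks virus entry, had Sham values of 7.59, 8.04 and 8.25 (lowest, median, highest) and LowCort values of 8.23, 8.65 and 8.78. A single LowCort rat, animal 20, lay inside the Sham range. Ifitm3 rose 1.57-fold (log2 0.65, SE 0.09, limma adjusted p = 8.41e-05). Slfn5 is a schlafen protein whose transcript interferon induces, and it ran from 7.58 through 7.91 to 8.10 in Sham and from 8.17 through 8.53 to 8.86 in LowCort. The groups did not overlap, and Slfn5 rose by 0.60 (SE 0.09, adjusted p = 0.000313). A second schlafen gene, Slfn2, rose by 0.19 (adjusted p = 0.0455), a call lost in 16 of the 20 fits with 1 animal left out. Rsad2, which encodes the antiviral protein viperin, rose by 0.42 in 1 of 2 probe sets (adjusted p = 0.0361); the other, which stood for it on the list, had 0.19. Its call was lost in 12 of the 20 fits with 1 animal left out and with the control covariates (adjusted p = 0.053).

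Of 33 interferon response genes listed, 16 were measured: 2 rose, 0 fell and 14 did not pass, with 15 differences above 0 and a median of 0.10. Over all genes 45.3% lay above 0 and 0.697% were called higher. The 2 that rose were Ifitm3 and Slfn5. Irf7, the transcription factor that drives interferon production, had 0.32 (adjusted p = 0.0847), and the immunoproteasome subunit Psmb8 had 0.19 (0.0992). Irf7 was above the Sham mean in 9 of 10 LowCort rats and passed with array weights (adjusted p = 0.0196). With the Gapdh and beta-actin covariates Irf7 did not pass (0.0913). The mean level of the 16 members ran from 6.81 to 6.96 in Sham and from 6.96 to 7.14 in LowCort. Other immune genes that rose were not on this list. Cd48, a surface ligand of natural killer and T cells, had Sham values of 6.43, 7.11 and 7.48 and LowCort values of 7.42, 7.60 and 8.03, so that 3 LowCort rats lay inside the Sham range. It rose by 0.52 (SE 0.10, adjusted p = 0.0102). Lgals3bp, a secreted galectin-binding protein, rose by 0.30 in 1 of 2 probe sets (adjusted p = 0.0137), and the other had 0.03. Vsir, an inhibitory checkpoint protein of immune cells, rose by 0.28 (adjusted p = 0.0393), and the complement protease C1r by 0.29 (0.0323). The Vsir and C1r calls were lost in 13 and 9 of the 20 fits with 1 animal left out. Casp1, the protease that activates interleukin-1 beta, rose by 0.37 (adjusted p = 0.026), a call lost without the 3 arrays that correlated least with the rest (0.103). C1r did not pass in the fit of all 39 arrays (adjusted p = 0.521).

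The promoters of 5 genes that rose hold the letters of the interferon-stimulated response element (GAAA, any 2 bases, GAAA) within 250 bases before the start: Casp1, Cd48, Ifitm3, Lgals3bp and Rsad2. The promoters of Slfn5 and Slfn2, which also rose, do not hold them. That was 5 of 31 promoters of risen genes and 0 of 20 of fallen genes, against 3.28% of all promoters. The 5 sequences were picked for printing after these counts were seen. Each shows the 150 bases before the RefSeq start in GRCr8, with capitals at that element on either strand (its reverse reads TTTC, any 2 bases, TTTC) and at AGAACA. The windows are chr1:205541759-205541908 on the minus strand, chr13:86717844-86717993 on the plus strand, chr10:104127849-104127998 on the minus strand, chr8:10872680-10872829 on the plus strand and chr6:48788121-48788270 on the minus strand.
Ifitm3: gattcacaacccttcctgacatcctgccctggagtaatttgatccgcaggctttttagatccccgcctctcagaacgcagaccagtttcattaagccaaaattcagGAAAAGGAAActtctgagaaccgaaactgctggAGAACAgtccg
Cd48: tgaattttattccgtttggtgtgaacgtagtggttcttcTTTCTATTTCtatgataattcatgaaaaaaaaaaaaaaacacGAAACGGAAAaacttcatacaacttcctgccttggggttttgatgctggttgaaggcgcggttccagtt
Lgals3bp: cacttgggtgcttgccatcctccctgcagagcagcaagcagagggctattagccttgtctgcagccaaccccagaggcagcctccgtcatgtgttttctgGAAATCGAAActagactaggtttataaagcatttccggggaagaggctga
Casp1: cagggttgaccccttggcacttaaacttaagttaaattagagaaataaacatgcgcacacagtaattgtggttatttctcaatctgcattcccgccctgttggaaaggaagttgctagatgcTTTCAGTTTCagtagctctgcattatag
Rsad2: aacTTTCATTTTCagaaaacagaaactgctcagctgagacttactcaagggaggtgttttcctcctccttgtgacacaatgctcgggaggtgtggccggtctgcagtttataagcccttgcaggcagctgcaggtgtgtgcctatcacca
The interferon element lies 44 to 35 bases before the start of Ifitm3, 50 to 41 before Lgals3bp, 28 to 19 before Casp1 and 147 to 138 before Rsad2, and Cd48 has 2 copies, at 111 to 102 and 69 to 60. Ifitm3 also has AGAACA at 11 to 6 bases before the start. The gamma-activated site TTCNNNGAA was found in 3 of 31 risen (Dbp, Ifitm3 and Slfn2) and 1 of 20 fallen promoters (Klf9), against 7.5% of all, and before the third listed start of Ddc. A match is a description of letters, and binding was not measured.

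Among microglial and antigen-presentation genes a single member was called. Of 19 measured markers of microglia and complement, 1 rose, 0 fell and 18 did not pass (median 0.07). For all genes, 0.697% were called higher and 11.0% had an unadjusted p under 0.05. The member that rose was Fcgr2b, the inhibitory receptor for immunoglobulin G, with Sham values of 5.81, 6.30 and 6.47 and LowCort values of 6.33, 6.79 and 7.25. Only 2 LowCort rats lay inside the Sham range, and the difference was 0.54 (SE 0.11, adjusted p = 0.0135). Complement C3 had 0.36 (adjusted p = 0.0866), the tetraspanin Cd53 had 0.21 (0.182), and the microglial calcium-binding protein Aif1 had -0.05 (0.835). The mean level of the 19 markers ran from 7.55 to 7.65 in Sham and from 7.56 to 7.80 in LowCort; their part in the changes of immune genes was not tested. Of 13 measured genes of antigen presentation, 0 were called (median 0.08), 4 had an unadjusted p under 0.05, and the light chain B2m had 0.24 (adjusted p = 0.193).

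Several genes of vessels, barrier transport and matrix rose. Car4, a carbonic anhydrase on the surface of brain capillaries, had Sham values of 8.58, 8.78 and 8.92 and LowCort values of 9.09, 9.32 and 9.53. The groups did not overlap, both probe sets were called, and the rise was 1.45-fold (log2 0.53, SE 0.06, adjusted p = 9.18e-06). Slco1a4, an organic anion transporter of the blood-brain barrier that carries steroid conjugates and thyroid hormone, ran from 9.22 through 9.58 to 9.87 in Sham and from 9.87 through 10.15 to 10.41 in LowCort. The groups met at a single LowCort rat, and Slco1a4 rose by 0.56 (SE 0.09, adjusted p = 0.00145). Agrn, the basement membrane proteoglycan agrin, rose by 0.47 (SE 0.07, adjusted p = 0.000994), and Slc40a1, the iron exporter ferroportin, by 0.41 (SE 0.07, adjusted p = 0.00268) without overlap of the groups. Of 24 measured markers of endothelial cells, pericytes and the barrier, 2 rose (Car4 and Slco1a4), 0 fell and 22 did not pass, with a median of 0.06. The share called higher over all genes was 0.697%. The tight junction protein Ocln had 0.16 (adjusted p = 0.231), and the pericyte channel Kcnj8 had 0.46 with a wide spread (SE 0.18, adjusted p = 0.323). The mean level of the 24 markers ran from 7.49 to 7.64 in Sham and from 7.62 to 7.76 in LowCort; its part in the rise of Car4 and Slco1a4 was not tested.

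Of 35 measured extracellular matrix and mesenchymal genes, 6 rose, 1 fell and 28 did not pass, and the median over the 35 was -0.00. The shares over all genes were 0.697% called higher and 0.465% called lower. Tnfrsf11b, the secreted decoy receptor osteoprotegerin, had Sham values of 6.92, 7.03 and 7.20 and LowCort values of 7.29, 7.44 and 7.54. The groups did not overlap, and it rose by 0.39 (SE 0.05, adjusted p = 4.54e-05). Csrp2, a LIM protein of smooth muscle and mesenchymal cells, rose by 0.57 (SE 0.08, adjusted p = 0.000106), and Serpinh1, a collagen chaperone, by 0.33 (SE 0.05, adjusted p = 0.000386), also without overlap. Vim, the intermediate filament vimentin, rose by 0.60 (SE 0.12, adjusted p = 0.0154), with 3 LowCort rats inside the Sham range. The proteoglycan decorin, Dcn, was called in 3 of its 4 probe sets, which ranged from 0.27 to 0.48, and the mineralization inhibitor Mgp rose by 0.24 (adjusted p = 0.0411). The Mgp call was lost in 16 of the 20 fits with 1 animal left out. Outside the list, S100a4, a calcium-binding protein of motile and mesenchymal cells, had Sham values of 6.04, 6.41 and 6.63 and LowCort values of 6.63, 7.00 and 7.61 with no overlap. S100a4 rose by 0.65 (SE 0.11, adjusted p = 0.00166), the fibulin Efemp1 by 0.44 (adjusted p = 0.00611) in the probe set with the smaller p of 2 that were called, and the secreted phospholipase autotaxin, Enpp2, by 0.38 (adjusted p = 0.0356). The member that fell was Itih3, which carries hyaluronan, at -0.64 (SE 0.11, adjusted p = 0.00166). Sham animal 6 was low for Itih3 (8.83, the other Sham rats from 9.57), and 8 LowCort rats lay inside the range that it widened. Of 14 measured fibroblast and meningeal markers, 1 (Dcn) was called, with a mean level of 7.12 to 7.38 in Sham and 7.17 to 7.32 in LowCort.

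**Figure D3:**
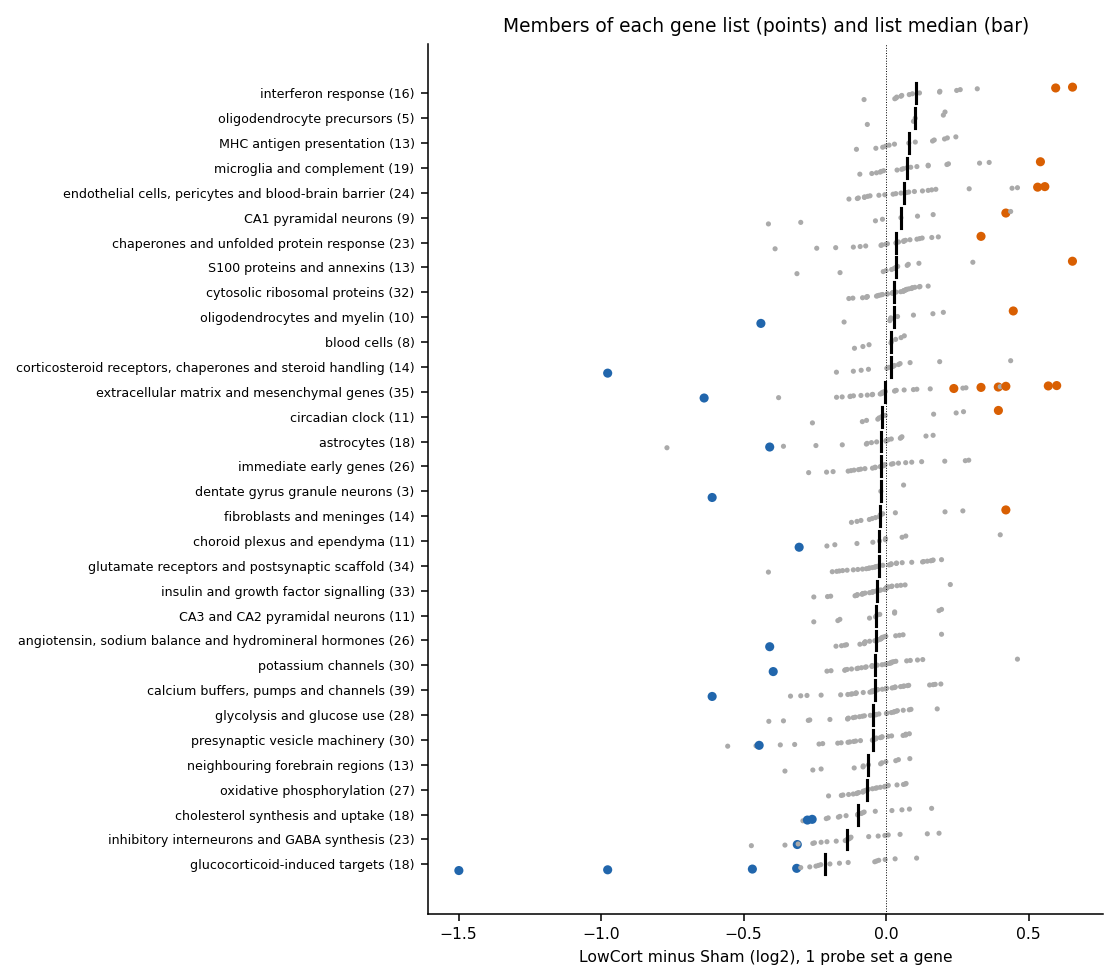
Difference between LowCort and Sham (log2, x axis) for each measured member (point, 1 probe set a gene) of 32 gene lists (rows, with the number measured), and the list median as a bar; orange marks members that rose and blue members that fell. Glucocorticoid-induced targets have the lowest median, -0.21, and interferon response genes lie above 0 in 15 of 16 cases.

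Among neuronal genes, the calcium buffer calbindin and a GABA-synthesizing enzyme fell. Calb1 had Sham values of 9.66, 9.95 and 10.21 and LowCort values of 8.87, 9.45 and 9.86. All but 1 LowCort rat lay below the lowest Sham rat, and Calb1 fell 1.53-fold (log2 -0.61, SE 0.11, limma adjusted p = 0.00322). In the hippocampus Calb1 is abundant in dentate granule cells, superficial CA1 pyramidal cells and some interneurons; of 14 dentate granule cell markers only 3 were measured, of which Calb1 was 1. Gad1, a glutamate decarboxylase, had Sham values of 10.15, 10.35 and 10.49 and LowCort values of 9.80, 10.05 and 10.26. It fell by 0.31 (SE 0.06, adjusted p = 0.00459), with a single LowCort rat inside the Sham range. Of 23 measured interneuron and GABA genes, 0 rose, 1 fell and 22 did not pass. Below 0 lay 19 differences, and the median was -0.14. Of all genes, 0.465% were called lower and 54.7% lay below 0. The vasoactive intestinal peptide gene Vip had -0.47 (adjusted p = 0.0572), the vesicular GABA transporter Slc32a1 -0.25 (0.0765), the calcium buffer calretinin, Calb2, -0.23 (0.0667) and proenkephalin, Penk, -0.35 (0.178). In the fit of all 39 arrays Vip and Calb2 passed (adjusted p = 0.0342 and 0.0158) and Slc32a1 did not (0.0952). Vip and Slc32a1 passed with array weights (0.0143 and 0.0215) and with the Gapdh and beta-actin covariates (0.0157 and 0.0478). Calb2 passed in neither (0.056 and 0.116). The mean level of the 23 genes ran from 8.55 to 8.66 in Sham and from 8.37 to 8.58 in LowCort.

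Other signalling genes of neurons also fell. Among neuropeptides, Adcyap1, which encodes the stress-related peptide PACAP, fell by 0.61 in 1 of 3 probe sets (SE 0.12, adjusted p = 0.00767), and Gal, galanin, by 0.26 (adjusted p = 0.0323). The 3 probe sets of Adcyap1 ranged from -0.61 to -0.12. Resp18, a protein of neuroendocrine secretory granules, fell by 0.37 (adjusted p = 0.0147), with 7 LowCort rats inside the Sham range. Among receptors and channels, the receptor tyrosine kinase Ret fell by 0.50 (SE 0.08, adjusted p = 0.000514) without overlap in 1 of 3 probe sets, and the highest of the 3 had 0.01. The called Ret probe set was dim, with means of 4.51 in Sham and 4.01 in LowCort, below the filter value of 6.28. The melanin-concentrating hormone receptor Mchr1 fell by 0.39 in 1 of 2 probe sets (adjusted p = 0.0154; the other had -0.16), and the potassium channel Kcnk1 fell by 0.40 (adjusted p = 0.0356). Cplx1, a complexin that controls vesicle fusion, fell by 0.45 (adjusted p = 0.0278), the 1 called of 30 measured presynaptic vesicle genes, and did not pass in the fit of all 39 arrays (0.086). The nuclear envelope protein Syne1 fell by 0.37 (adjusted p = 0.0322), the retinoic acid-binding protein Crabp1 by 0.41 (0.00767) and Dusp5, a phosphatase of the kinase ERK, by 0.26 (0.0323). The Gal, Kcnk1 and Dusp5 calls were lost in 13, 13 and 11 of the 20 fits with 1 animal left out. Ddc, the decarboxylase that makes dopamine and serotonin, rose by 0.26 (SE 0.05, adjusted p = 0.00317) without overlap. Of 34 glutamate receptor and postsynaptic genes and 26 immediate early genes measured, 0 were called (3 and 5 with an unadjusted p under 0.05). For all genes, 1.16% were called and 11.0% had an unadjusted p under 0.05.

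Metabolic genes moved both ways. Hk2, a hexokinase that commits glucose to glycolysis, had Sham values of 6.66, 6.94 and 7.10 and LowCort values of 7.19, 7.57 and 7.70. The groups did not overlap, and Hk2 rose 1.54-fold (log2 0.63, SE 0.07, adjusted p = 1.12e-05). Its second probe set, which stood for it on the glycolysis list, had -0.14, so the probe sets of Hk2 disagree. Of 28 measured genes of glycolysis and glucose use, 0 were called in the probe set on the list (median -0.05), with 6 at an unadjusted p under 0.05. The shares over all genes were 1.16% called and 11.0% with an unadjusted p under 0.05. Pgam1, a glycolytic mutase, fell by 0.23 in 1 of 3 probe sets (adjusted p = 0.0386), and the mitochondrial adenylate kinase Ak4 rose by 0.42 (adjusted p = 0.0124). The adiponectin receptor Adipor2 fell by 0.37 in 1 of 3 probe sets (SE 0.06, adjusted p = 0.00228), and the highest of the 3 had 0.01. The mitochondrial arginase Arg2 fell by 0.26 (adjusted p = 0.0234). Aldoc, the astrocytic aldolase, had -0.36 (adjusted p = 0.0813), and without Sham animal 6 it had -0.45 and passed (adjusted p = 2.5e-05).

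Of 18 measured genes of cholesterol synthesis and uptake, 0 rose, 2 fell and 16 did not pass, with 14 differences below 0 and a median of -0.10. Of all genes, 0.465% were called lower and 54.7% lay below 0. Sqle, squalene epoxidase, had Sham values of 9.05, 9.25 and 9.41 and LowCort values of 8.64, 8.99 and 9.17, with 3 LowCort rats inside the Sham range. It fell by 0.26 (SE 0.06, adjusted p = 0.0393). Insig1, which retains the sterol sensor in the endoplasmic reticulum and is itself switched on with sterol synthesis, fell by 0.28 (adjusted p = 0.0356). Cyp7b1, which hydroxylates oxysterols and neurosteroids, rose by 0.34 (SE 0.08, adjusted p = 0.0356) in 9 of 10 LowCort rats against the Sham mean. The calls of Sqle, Insig1 and Cyp7b1 were lost in 13, 12 and 13 of the 20 fits with 1 animal left out. The letters TCACNCCAC of the sterol regulatory element were in 0 of 20 fallen and 0 of 31 risen promoters, against 0.969% of all.

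Glial and clock genes gave single changes. Agt, angiotensinogen, which astrocytes make in the brain, had Sham values of 9.90, 10.13 and 10.57 and LowCort values of 9.22, 9.72 and 10.01. It fell by 0.41 (SE 0.09, adjusted p = 0.0154), and 2 LowCort rats lay inside the Sham range. It was the 1 called of 18 measured astrocyte markers, whose median was -0.02. The share called over all genes was 1.16%. Of 10 measured genes of oligodendrocytes and myelin, the proteolipid Mal fell by 0.44 (SE 0.09, adjusted p = 0.00916) and the protease Klk6 rose by 0.45 (SE 0.10, adjusted p = 0.0356). Enpp6, a choline phosphodiesterase of newly formed oligodendrocytes, rose by 0.34 (adjusted p = 0.026). Mal did not pass in the fit of all 39 arrays (adjusted p = 0.0588), and Klk6 did not pass in 13 of the 20 fits with 1 animal left out. Dbp, a transcription factor whose transcript swings widely over the day, had Sham values of 7.43, 7.80 and 8.25 and LowCort values of 7.86, 8.19 and 8.46. Both probe sets of Dbp were called, at 0.41 (SE 0.08, adjusted p = 0.0147) and 0.39, although 7 LowCort rats lay inside a Sham range that animal 6 set. The clock gene Per2 had 0.25 (adjusted p = 0.301) and the clock repressor Bhlhe40 -0.26 (0.271), and Dbp was the only called of 11 measured clock genes. The clock E-box CACGTG was in 2 of 31 risen promoters (Slco1a4 and Slfn2) and 3 of 20 fallen ones (Eva1a, Il6r and Insig1), against 5.78% of all.

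Lists of neighbouring tissue and of general cell functions held few calls. Over all genes, 1.16% were called and 11.0% had an unadjusted p under 0.05. At that share of calls, lists of this size hold few or none, so these counts say little about their members. Of 11 measured markers of choroid plexus and ependyma, the surface glycoprotein Cd24 fell by 0.31 (adjusted p = 0.0166). The other 10 did not pass in the probe set on the list. One of them was Enpp2, which rose in 1 of its 2 probe sets and stood on this list with the other, at 0.40. The mean level of the 11 was 7.20 to 7.34 in Sham and 7.16 to 7.31 in LowCort. Of 8 blood cell markers, 11 of CA3 and CA2 pyramidal cells, 13 of neighbouring forebrain regions and 5 of oligodendrocyte precursors, 0 were called (1, 2, 3 and 1 with an unadjusted p under 0.05), and the blood markers ran from 7.52 to 7.84 in Sham and from 7.24 to 7.80 in LowCort. None of 32 cytosolic ribosomal protein genes (median 0.03) and none of 27 respiratory chain genes (median -0.07) were called, with 0 and 1 at an unadjusted p under 0.05. Among 33 insulin and growth factor genes 0 were called (3 unadjusted). Single calls came from 39 calcium-handling genes (Calb1), 30 potassium channels (Kcnk1), 26 genes of angiotensin and sodium balance (Agt) and 23 chaperones (Serpinh1).

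The remaining called genes belonged to no group above. Rises were found for the cell cycle activator Ccnd1 (0.32, in 1 of 5 probe sets), the corepressor Tle1 (0.35), the endocytic adaptor Dab2 (0.33), the phospholipase Pld2 (0.38), the insulin receptor adaptor Grb14 (0.37), the tetraspanin Tspan8 (0.39), the actin-branching subunit Arpc1b (0.30) and the membrane protein Mpzl1 (0.26). A probe set annotated to the ribosomal protein gene Rpl19l4 rose by 0.62 (SE 0.15, adjusted p = 0.0356). Its means were 7.82 in Sham, 8.44 in LowCort and 8.46 in IntermediateCort. Those of M13100cds#4_f_at, a probe set without a symbol, were close, at 7.77, 8.37 and 8.38. Which transcripts the Rpl19l4 probe set reads was not tested, so its signal is not assigned to that gene here. Eva1a, a regulator of autophagy, fell by 0.41 (SE 0.07, adjusted p = 0.00154), with 2 LowCort rats inside the Sham range. For Ccnd1, Tle1, Dab2, Tspan8 and Eva1a no omission of 1 animal ended the call. The call of Dab2 was lost in 1 of the other alternatives (limma adjusted p = 0.0634). The 5 probe sets of Ccnd1 ranged from -0.06 to 0.32, so they differ in sign.

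**Figure D4:**
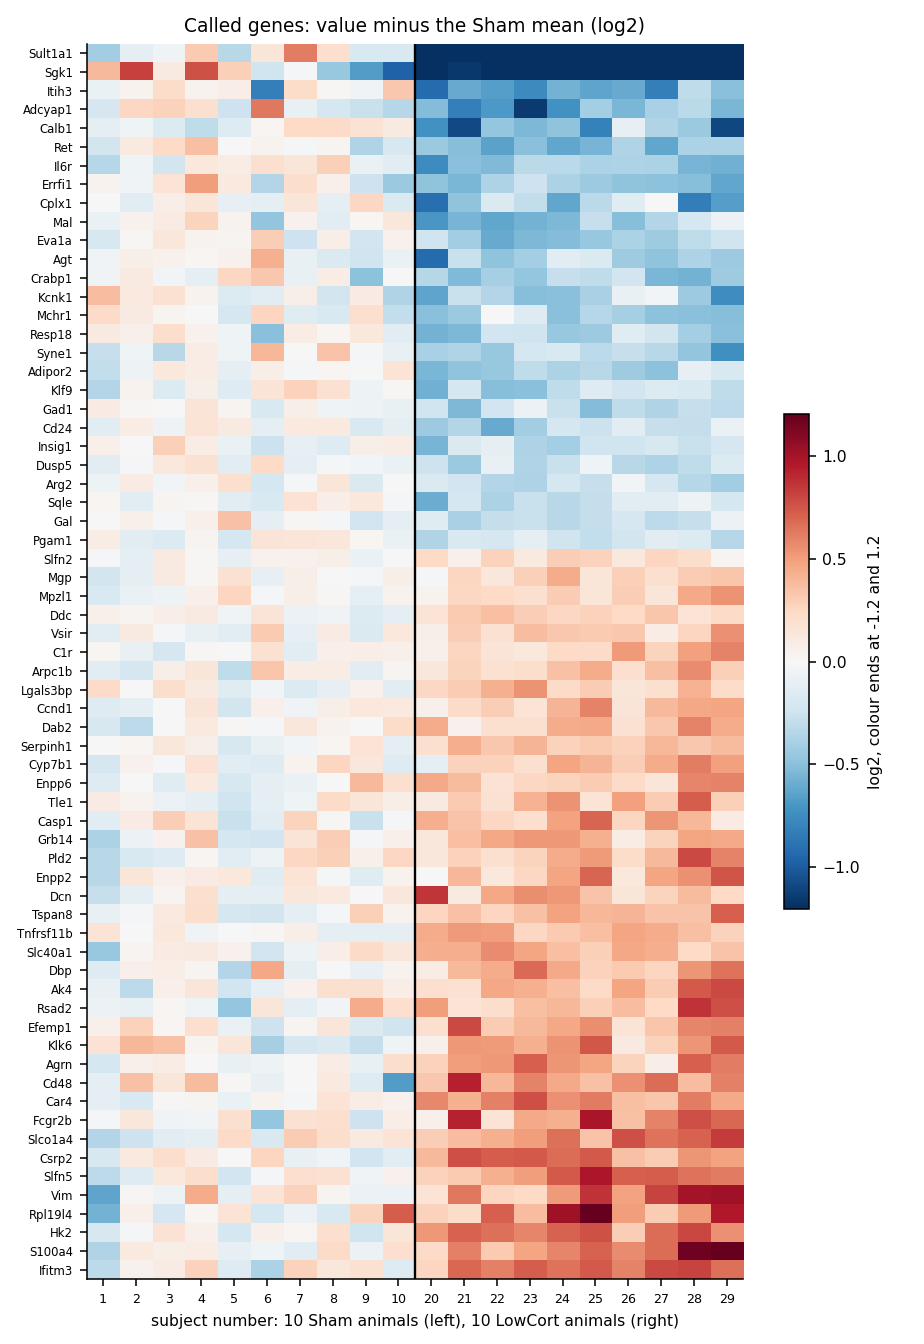
Value minus the Sham mean (log2, colour) for the called genes (rows) in each of the 10 Sham animals (left) and 10 LowCort animals (right), by subject number. Genes that fell, with Sult1a1 and Sgk1 the deepest, and genes that rose keep 1 colour over nearly all LowCort animals, while Sham animal 6 stands out in several rows.

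Probe sets with no symbol, or several, made up 18 of the 91 calls. They included the largest rise, 0.67 for X61295cds_s_at (SE 0.16, adjusted p = 0.0393), and falls of 0.83 for rc_AI176456_at (adjusted p = 1.12e-05) and 0.90 for M33648_g_at (adjusted p = 2.8e-05), both without overlap of the groups. A set of 12 probe sets without symbols whose identifiers begin with M13100, X53581 or X05472 all had positive differences, from 0.39 to 0.60, and 5 of them were called. Their mean level ran from 8.10 to 8.97 in Sham and from 8.57 to 9.51 in LowCort. They were singled out after their values were seen, and probe sets of related sequence can read the same transcripts, so the 12 are not independent.

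The larger pellet gave other values for several of the genes that changed most in LowCort, and similar values for others. IntermediateCort rats had also been adrenalectomized, and their pellet held 200 mg; their drinking fluid after the pellet was placed is not stated in the labels. Against the same Sham arrays, 2 of 8740 probe sets (0.0229%) were called in IntermediateCort and 336 had an unadjusted p under 0.05; against LowCort, 175 (2%) were called. Both comparisons share arrays with the one above and with each other, so values are set side by side only. Sult1a1 was 6.42 ± 0.72 in IntermediateCort (SD, n = 9), which was -0.33 from Sham (SE 0.22, limma adjusted p = 0.999) and 1.37 above LowCort (SE 0.22, adjusted p = 0.00113). Sgk1 was 8.64 ± 0.47, which was -0.79 from Sham (SE 0.22, adjusted p = 0.668) and 0.71 above LowCort (SE 0.14, adjusted p = 0.00977). For Sgk1 the 3 group means thus ran from Sham over IntermediateCort to LowCort, and the step from Sham to IntermediateCort did not pass. Ifitm3 was -0.55 in IntermediateCort against LowCort (SE 0.06, adjusted p = 6.09e-05) and 0.10 against Sham (SE 0.08, adjusted p = 0.999). Car4 gave -0.44 and 0.09, Hk2 -0.46 and 0.17, Slfn5 -0.67 and -0.07, and Calb1 0.60 and -0.01, in the same order. These 4 genes passed against LowCort, and none passed against Sham. Sult1a1, Sgk1, Ifitm3 and these 4 were named for their change in LowCort, whose arrays are used again here. That choice favours a call against LowCort, so these calls are no independent evidence. Gad1 passed against neither group, with 0.11 against LowCort (adjusted p = 0.588) and -0.20 against Sham (adjusted p = 0.999). The Nr3c2 value in IntermediateCort was -0.36 from LowCort (SE 0.08, adjusted p = 0.0178) and 0.08 from Sham. Other rises were of similar size in both pellet groups. Rpl19l4 was 0.02 in IntermediateCort against LowCort (adjusted p = 0.978) and 0.64 against Sham (0.636). X61295cds_s_at, the largest rise, was -0.08 against LowCort (adjusted p = 0.891) and 0.60 against Sham (0.848). AF030088UTR#1_at, which does not carry a single symbol, was called against Sham in both pellet groups. It rose by 0.65 in LowCort (SE 0.16, adjusted p = 0.0493) and by 1.10 in IntermediateCort (SE 0.11, adjusted p = 2.77e-05). IntermediateCort was 0.45 above LowCort for it (adjusted p = 0.258).

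**Figure D5:**
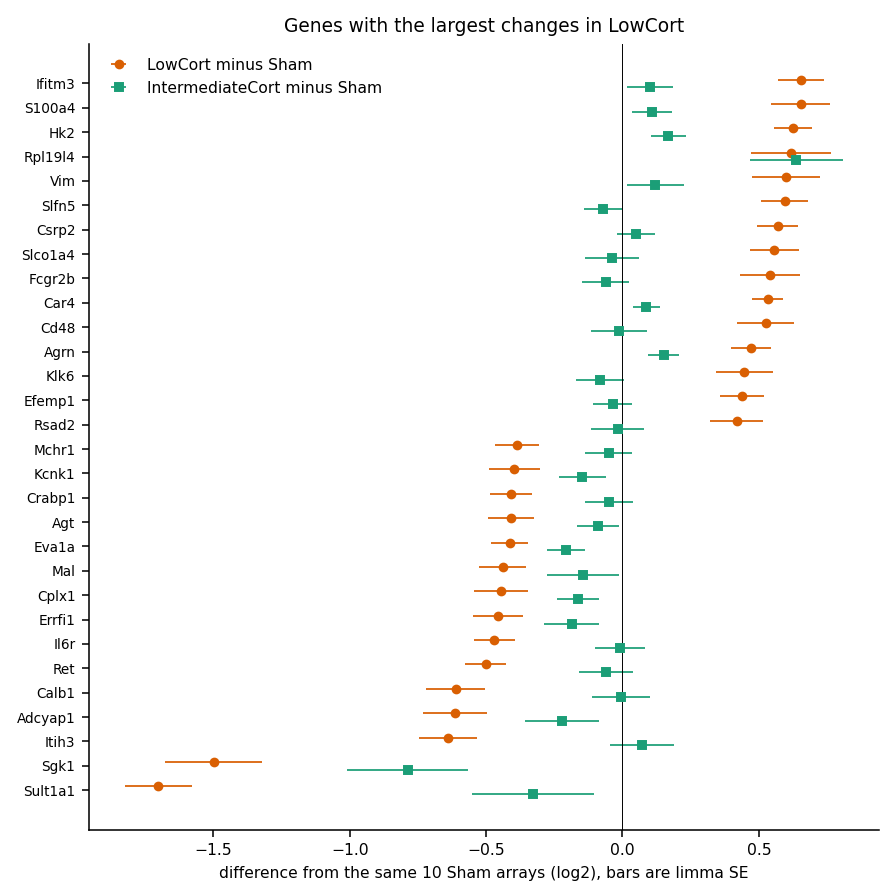
Difference from the same 10 Sham arrays (log2, x axis, bars are limma SE) in LowCort (circles) and IntermediateCort (squares) for the genes with the largest changes in LowCort (rows). For Sult1a1 LowCort lies at -1.70 and IntermediateCort at -0.33.

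All 66 called genes kept their direction, and not all kept their call. Of the 66 called genes, 41 passed whichever of the 20 animals was left out, 39 passed in every alternative tried, and 0 changed direction. Beside the losses given above, calls ended in some of the 20 fits with 1 animal left out for Mpzl1 and Arpc1b (15 fits each), Pgam1 (13), Rpl19l4 (12), Pld2 (11), Grb14 and Enpp2 (10 each), Cplx1 (7), Syne1 (6), Enpp6 (5), Casp1 (4) and Arg2 (2). Casp1 and Cd24 were called in 1 of 3 probe sets, and Agrn, Arpc1b, Enpp2, Insig1, Klf9, Pld2 and Slc40a1 in 1 of 2, with the same sign in the others. The genes lost to the fit of all 39 arrays were Mal, Cplx1, C1r, Enpp2, Rpl19l4, Pgam1 and Klf9. With the control covariates, the lost genes were Grb14, Syne1, C1r, Enpp2, Rpl19l4, Rsad2, Pgam1, Mpzl1, Arpc1b, Mgp and Slfn2. Without the 3 arrays of lowest correlation, 12 of the 66 calls were lost. Sult1a1, Sgk1, Car4, Hk2, Ifitm3, Slfn5, Il6r, Calb1 and Gad1 passed in every alternative run for them.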

How the data were processed

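CA1 total RNA was labelled with biotin and hybridised to Affymetrix rat arrays, 1 per animal. The authors deposited log2 values for 8799 probe sets, and MAS5, RMA and R 2.7.1 are named per the submitters' processing notes. Neither the tool that made the values nor the log base is stated in these sources; the base was read from the values, whose maximum of 14.4 exceeds 11.09, the natural log of a 16-bit maximum. Array medians lay between 7.27 and 7.33, and no normalization was added.

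Groups came from the sample titles, and the labels give no batch. No control probe set was tested (59 of them). Of the other 8740, 7006 carried 1 gene symbol (4736 genes), 308 several and 1426 none; genes were named only from the first kind, and Entrez identifiers of 6985 matched the RefSeq gene table of GRCr8, with 0 symbols updated. limma 3.58.1 in R 4.3.3 (lmFit, eBayes) tested LowCort against Sham on 20 arrays with 18 residual degrees of freedom, two-sided, with Benjamini-Hochberg adjustment over all 8740 and a threshold of 0.05. Errors are limma SE or group SD. p-values of single genes in the text are adjusted ones from this fit unless another is named. IntermediateCort was fitted against each group in the same way. Control probe sets were compared with permutation tests (100000 resamples, scipy 1.17.1). The number of arrays limits the precision. The procedure was tested on simulated data.

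The members and lists were chosen with earlier results of these data known. Named genes were all called genes with 1 symbol, up to 4 members of each of 32 lists with the smallest p, and a fixed set of glucocorticoid genes; Aif1, Sst and Tfrc were added after their values were seen. A list holds 1 probe set a gene, that with the highest mean, and 574 of 832 list genes were measured. Promoters (RefSeq, GRCr8) were matched by symbol for 31 of 39 risen and 20 of 27 fallen genes, with 1 window a gene before the start farthest upstream, and motifs were sought on both strands; gene names of the array are those of its platform table. Alternatives were a filter at the 30th percentile, all 39 arrays in 1 fit, array weights, control covariates, quantile normalization, median centring, trended robust variances, leaving out each animal and, chosen after seeing the data, leaving out the 3 arrays of lowest correlation.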

Additional observations from a re-analysis of the deposited data

Results flagged for a closer look

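Within the groups of 10, 19 of 208 sets of values for the named genes held an animal whose gap to the others was large for the group's range by Dixon's criterion; chance alone flags about 1 in 20. Of the 19, 10 came from Sham animal 6. That animal was the lowest of Sham for Itih3 (8.83, the others 9.57 to 9.97), Mal (9.83), Resp18 (9.71), C3 (7.12), Aldoc (11.73, the others 12.51 to 12.82), Tfrc, the transferrin receptor (6.26), and Bhlhe40 (7.53). It was the highest of Sham for Dbp (8.25), Agt (10.57) and Sst, somatostatin (11.83). Without it, the differences of Itih3, Mal, Resp18, Dbp and Agt still passed.

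In the other Sham animals, Crabp1 was lowest in animal 9 (6.45), Cd48 in animal 10 (6.43) and Vim in animal 1 (6.91), and galanin, Gal, was highest in animal 5 (8.01). In LowCort, animal 20 was lowest for Ifitm3 (8.23, the others 8.57 to 8.78) and for Agt (9.22). Animal 29 was highest for Tspan8 (6.30) and lowest for Syne1 (8.21), and animal 21 was lowest for Irf7 (7.30). Without animal 21 the rise of Irf7 passed, as it also did with array weights.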

How the results depend on the processing

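With LowCort against Sham at 91 called probe sets, array weights gave 144, which held all 91; the filter gave 92, all 39 arrays 123, the control covariates 108, quantile normalization 98, median centring 89, trended robust variances 90, and the fit without Sham animals 5 and 6 and LowCort animal 20 gave 99, of which 70 were among the 91. Leaving out 1 animal gave 58 (without LowCort animal 28) to 100. Called members of the 32 lists numbered 28, and 20 to 30 with 1 animal left out. For IntermediateCort against Sham, 2 calls became 4 with the filter, 1 with all 39 arrays and 5 with the covariates, and 1 to 3 with 1 animal left out. IntermediateCort against LowCort went from 175 to 328 with array weights, and from 126 to 230 with 1 animal left out. Nr3c1, at 0.00, ran from -0.0211 to 0.0181 with 1 animal left out and was below 0 in 7 of these 20 fits. The Gapdh difference of 0.11 ran from 0.0727 to 0.160 and the beta-actin difference of 0.25 from 0.170 to 0.347. The median of dentate granule cell markers, -0.02, was -0.27 with the filter, which leaves fewer members. The cause was not tested for the other moves. No paired analysis was possible because Sham and LowCort share no subject number. The number of arrays and the signal of dim probe sets limit what can be detected.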

Other observations

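The animals differed among themselves somewhat more in Sham than in LowCort. The within-group SD was larger in Sham for 5254 of 8740 probe sets, with a median of 0.164 in Sham and 0.149 in LowCort. For the 91 called probe sets it was larger in Sham in 55, with medians of 0.187 and 0.169. Sgk1 differed most plainly, with an SD of 0.59 in Sham and 0.17 in LowCort, while Calb1 had 0.19 and 0.32 and S100a4 0.18 and 0.32. The difference in spread was not tested.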
